A study of Zeugodacus cucurbitae with 52 samples.

Results

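The genes described here are those of the melon fly, Zeugodacus cucurbitae, whose product description contains the words "accessory gland". The search found 9 of the 18241 genes in the expression table, in 2 families: 5 genes described as male accessory gland serine protease inhibitor-like (gene2463, gene2465, gene2466, gene4564 and gene4565) and 4 described as accessory gland protein Acp29AB-like (gene221, gene223, gene6567 and gene6568). RNA of whole bodies came from 13 stages, each in 4 libraries, so that 52 were compared: eggs, larvae of 1, 3 and 7 d, pupae of 1, 5 and 9 d, and virgin females and virgin males of 1, 5 and 9 d after emergence. Each library was made from a pool of animals of a laboratory colony reared on artificial diet, with no treatment, and the labels give no sex for eggs, larvae and pupae. Levels are in TPM, the share of a library's transcripts that come from a gene, which takes gene length into account, so that they can be compared between genes.

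The male accessory glands are paired organs of the insect reproductive tract that secrete proteins of the seminal fluid, which is passed to the female with the sperm at mating. In Drosophila melanogaster, Acp29AB is a seminal fluid protein with a C-type lectin (sugar-binding) domain that is needed for sperm to be kept in the female's storage organs. The name of the other family comes from a small Kunitz-type inhibitor found in the accessory glands of Drosophila funebris; Kunitz-type proteins block serine proteases by filling the active site, and they act in many secretions besides seminal fluid. The "-like" in both names records similarity of sequence and not a measurement in the gland. No tissue was dissected, so a difference between stages cannot be divided into the number of gland cells and the RNA per cell: fewer cells of a type and less RNA per cell cannot be told apart.

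Most of these genes were not highest in adult males. Only 1 of the 9, gene4565, had its highest mean level in adult males, and 6 had it in 1-d-old pupae. The remaining 2 were highest in 5-d-old pupae (gene6568) and in 1-d-old larvae (gene221). When libraries were rescaled by the median ratio over genes present in all of them (median-of-ratios scaling), 5 were highest in 1-d-old pupae, since gene4564 and gene221 then had their highest mean in 7-d-old larvae; the other 7 kept their highest stage. Over the 11239 genes that passed 10 TPM in some stage, 16.9% were highest in 1-d-old pupae (10.7% of 10808 genes after rescaling). Males of 1, 5 and 9 d held the highest level of 0.83%, 3.40% and 12.1% (1.31%, 4.92% and 9.96% after rescaling). The count of 1 of 9 in adult males is thus near the share of all genes. A marker of each sex was set beside the sex labels: the vitellogenin of highest mean in 9-d-old females and the protamine of highest mean in 9-d-old males. They were chosen by these labels and are no independent check of them. Vitellogenin-1-like (gene11335), the precursor of yolk protein, reached 5842 ± 2716 TPM (SD, n = 4) in 9-d-old females and at most 5.14 TPM in any male library. In 1-d-old females it was at 0.84 to 2.55 TPM, so it does not mark the sex at that age. Protamine-like (gene5345), a sperm chromatin protein, reached 1126 ± 104 TPM in 9-d-old males and at most 0.17 TPM in any female library.

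Stages were compared with limma on log2(TPM + 1), with p-values adjusted by the Benjamini-Hochberg method over the 17097 genes tested; all 9 genes were among them, gene2465 only through its 4 libraries of 1-d-old pupae, so that its calls there were fixed by the filter and are not counted below. A gene is described as higher, lower, risen or fallen where the adjusted p was under 0.05 and the log2 fold change beyond 2 in size, the thresholds of the study. Fold changes are differences of log2(TPM + 1) and understate the change of genes of low level. In 6 libraries (1 of 3-d-old larvae, 1 of 5-d-old pupae, 3 of 9-d-old pupae and 1 of 9-d-old males) under 70% of the reads mapped. Eggs, pupae, 1-d-old adults and replicates 3 and 4 of the 7-d-old larvae had shorter reads after trimming than the other libraries. The number of reads behind a value is not in the table, so its counting error is unknown, and the 4 pools of a stage are the replicates.

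**Figure D1:**
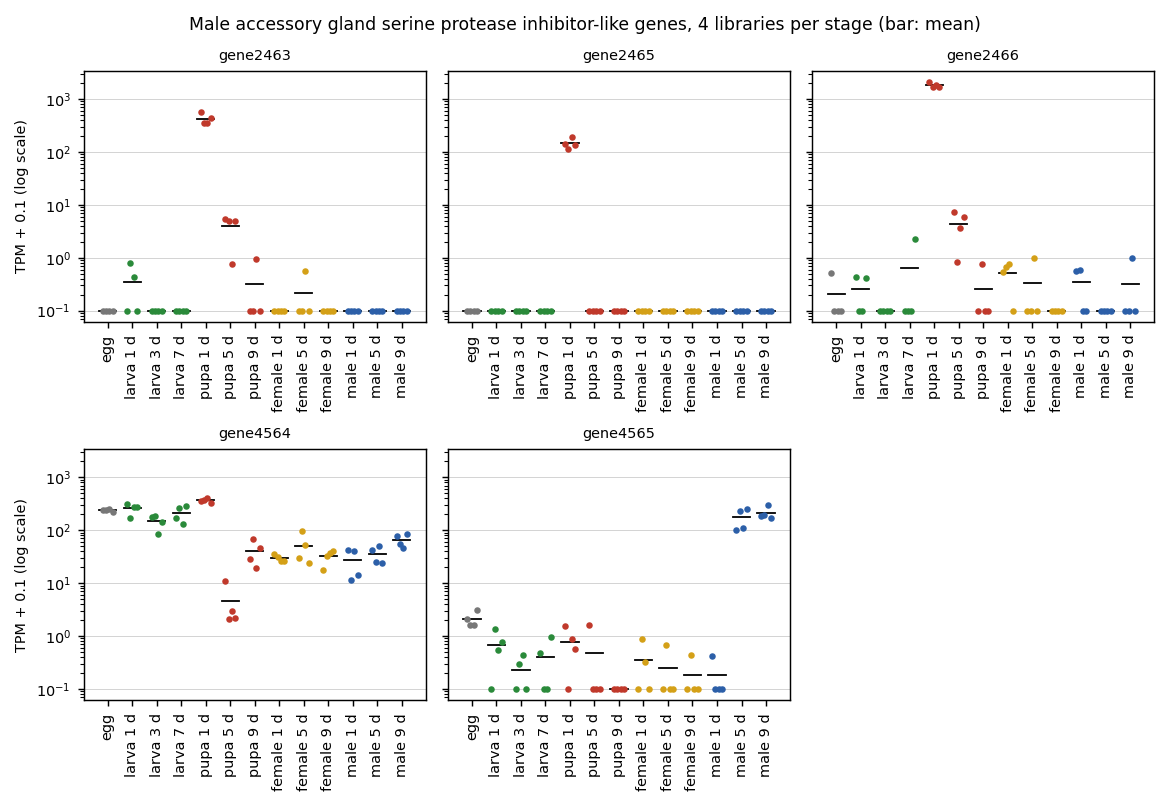
Level of each of the 5 serine protease inhibitor-like genes in each library, as TPM + 0.1 on a log scale, with points for the 4 libraries of a stage and a bar at their mean. Of the 5 genes, gene4565 stands above 100 TPM only in males of 5 and 9 d, whereas gene2463, gene2465 and gene2466 stand above 100 TPM only in 1-d-old pupae and gene4564 is present in every library.

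The gene with a male pattern was gene4565 (LOC105210778). In the 4 libraries of 5-d-old males it was measured at 100.04, 234.66, 112.32 and 250.96 TPM, and in those of 9-d-old males at 189.96, 191.56, 297.29 and 170.24 TPM. In 1-d-old males it was listed at 0 in 3 libraries and at 0.32 TPM in the other. The 8 libraries of older males therefore lay far from those of newly emerged males, with no overlap, while the 5-d-old and 9-d-old males overlapped.

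Females never approached these values. Of the 12 female libraries 8 were listed at 0 for gene4565, and the highest was 0.77 TPM, at 1 d. The mean of 174 ± 79.3 TPM in 5-d-old males stood against 0.145 TPM in 5-d-old females, a log2 fold change of 7.17 ± 0.29 (SE; limma, adjusted p = 1.20e-24). At 9 d the means were 212 ± 57.5 and 0.0825 TPM and the log2 fold change 7.60 ± 0.29 (limma, adjusted p = 7.60e-26). It was the only one of the 9 genes that was higher in males of either age. Over all genes tested, 5.85% were higher in males at 5 d and 6.81% at 9 d, and none of the 9 was lower in males, against 4.84% and 10.1% of all genes. One of them, gene2465, was listed at 0 in all adult libraries and could not be called. With median-of-ratios scaling the shares over all genes were 6.56% higher and 3.52% lower at 5 d and 10.6% higher and 4.94% lower at 9 d, so that the balance at 9 d turned, and gene4565 stayed the only one of the 9 called.

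The rise of gene4565 in males fell between 1 and 5 d after emergence. Its log2 fold change from 1-d-old to 5-d-old males was 7.24 ± 0.29 (limma, adjusted p = 3.63e-24), and 1.87% of all genes rose in that comparison. The change with age in males exceeded that in females by 7.35 ± 0.41 on the log2 scale (limma, adjusted p = 2.36e-19), a difference passed in this direction by 1.41% of genes (2.18% with median-of-ratios scaling). From 5 to 9 d the log2 difference in males was 0.37, with a 95% interval of -0.22 to 0.95 (limma, adjusted p = 0.51). The males of 1 d had shorter reads after trimming than those of 5 and 9 d, so age and trimmed read length cannot be told apart in the rise; the sexes at 5 d and at 9 d were each compared within 1 class of trimmed length.

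Outside older males, gene4565 was highest in eggs, at 1.97, 1.5, 1.55 and 2.99 TPM. Apart from older males, the only library of another stage within their range was replicate 1 of the 5-d-old pupae, at 1.51 TPM. Against 9-d-old females the log2 difference of eggs was 1.46 ± 0.29 (limma, adjusted p = 2.02e-05), below the fold threshold. The gene was listed at 0 in all 4 libraries of 9-d-old pupae.

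**Figure D2:**
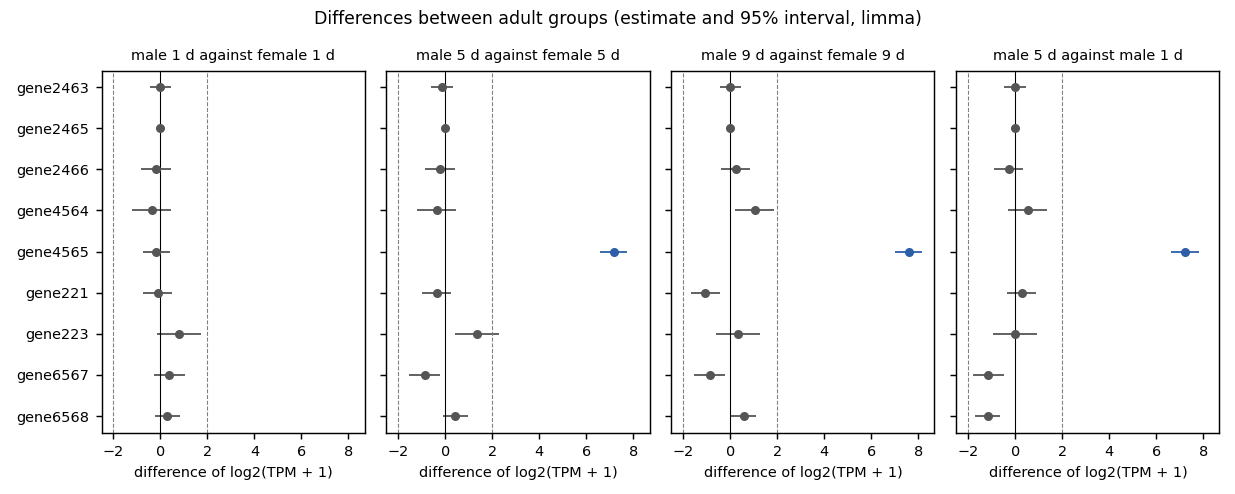
Difference of log2(TPM + 1) between adult groups for each of the 9 genes, with points for the limma estimate and lines for its 95% interval; dashed lines mark the fold threshold of 2. Only gene4565 passes it, at 7.17, 7.60 and 7.24 in the comparisons of 5-d-old sexes, 9-d-old sexes and 5-d-old with 1-d-old males.

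In newly emerged adults no difference between the sexes was detected in these genes. At 1 d, 0 of the 9 were called by limma (also 0 at an unadjusted p under 0.05), where 4.64% of all genes were called. Of the 9, gene2463 and gene2465 were listed at 0 in all libraries of both sexes at 1 d, so they could not be called. The 8 genes other than gene4565 showed smaller differences between older adults. At 9 d gene4564 stood at 78.19, 55.16, 45.67 and 86.03 TPM in males and at 17.96, 33.12, 36.4 and 40.46 TPM in females, which do not overlap; the log2 difference was 1.04 ± 0.41 (limma, adjusted p = 0.024), short of the fold threshold. At 5 d gene223 stood at 7.69 ± 2.88 TPM in males and 2.62 ± 1.95 TPM in females, a log2 difference of 1.36 ± 0.46 (limma, adjusted p = 0.011). Both gene221 and gene6567 lay the other way at 9 d, at 0.55 and 1.16 TPM in males and 2.37 and 2.90 TPM in females (log2 differences -1.07 ± 0.30 and -0.88 ± 0.33; limma, adjusted p = 0.0019 and 0.015). These small differences depended on the processing: with median-of-ratios scaling they were -0.56 and -0.35 (adjusted p = 0.122 and 0.346), with a pseudocount of 0.1 TPM that of gene221 was -2.002 and just passed the threshold, and that of gene4564 was 1.77 after scaling.

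The 3 inhibitor-like genes gene2463, gene2465 and gene2466 were genes of the 1-d-old pupa. Of the sum of its 13 stage means, gene2466 (LOC105208509) had 99.7% in that stage, gene2463 (LOC105208504) 98.9%, and gene2465 (LOC105208506) 100%. In the 4 libraries of 1-d-old pupae gene2466 was measured at 2094.88, 1693.5, 1861.38 and 1701.19 TPM. Its mean of 1838 ± 188 TPM ranked 97 among the 18241 genes of that stage.

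In 7-d-old larvae gene2466 was listed at 0, 0, 0 and 2.15 TPM, and in 5-d-old pupae at 7.26, 0.74, 3.57 and 5.74 TPM. The burst thus had no library in common with the stage before or after it. It rose by 10.43 ± 0.31 on the log2 scale from the 7-d-old larva (limma, adjusted p = 2.30e-29) and changed by -8.64 ± 0.31 from there to the 5-d-old pupa (limma, adjusted p = 1.87e-26). A further fall from 5 to 9 d, of -2.02 ± 0.31 (limma, adjusted p = 4.58e-07), barely passed the fold threshold and did not pass it without replicate 1 or 4 of the 5-d-old pupae (-1.73 and -1.83) or without replicate 1, 3 or 4 of the 9-d-old pupae (-1.96 each).

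In 1-d-old pupae gene2463 was measured at 564.98, 347.95, 351.53 and 434.4 TPM, and in 5-d-old pupae at 5.3, 4.92, 0.66 and 4.87 TPM. It was listed at 0 in all 4 libraries of 7-d-old larvae, so no fold is given for its rise (limma, adjusted p = 2.56e-31). Its fall from 1 to 5 d in the pupa was -6.58 ± 0.23 on the log2 scale (limma, adjusted p = 5.52e-27). From 5 to 9 d in the pupa the log2 difference was -1.90 ± 0.23, short of the fold threshold, which it passed without replicate 3 of the 5-d-old pupae (-2.37) or replicate 3 of the 9-d-old pupae (-2.13). In all adult males and all but 1 of the 12 adult female libraries it was listed at 0. The exception was replicate 3 of the 5-d-old females, at 0.47 TPM.

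The narrowest pattern was that of gene2465. It was measured at 139.56, 114.63, 189.24 and 136.97 TPM in 1-d-old pupae and was listed at 0 in each of the other 48 libraries, adult males included. No fold is given against stages at 0. No test is given either, since the gene entered the fit only through this stage.

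On the RefSeq assembly idZeuCucr1.2, used here only for the order of genes, these 3 genes lie next to each other and to 3 further inhibitor genes. The order is gene2462 (proteinase inhibitor-like), gene2463, gene2465, gene2466, gene2467 (kunitz-type proteinase inhibitor SHTX-3-like) and gene2468 (kunitz-type proteinase inhibitor AXPI-II-like). Neighbours were taken up to 2 genes from a member, so what lies beyond gene2468 was not examined. The 5 other than gene2465 rose from 7-d-old larvae to 1-d-old pupae and fell to 5-d-old pupae. The gene beside them, gene2461 (the stress kinase JNK), stood at 62.2 ± 3.14 TPM in 1-d-old pupae. In 7-d-old larvae it stood at 13.6, 19.29, 16.21 and 14.13 TPM, with no overlap. That log2 difference was 1.92 ± 0.09 (limma, adjusted p = 8.67e-22), just short of the fold threshold. The median over all genes in this comparison was 0.67, or 0.03 with median-of-ratios scaling. That scaling divides 1-d-old pupae by 1.45 to 1.52 and 7-d-old larvae by 0.49 to 0.64, which would narrow the difference of gene2461. The gene was not fitted again with it. In 5-d-old pupae gene2461 stood at 51.5 ± 1.63 TPM (-0.27 ± 0.09; limma, adjusted p = 0.013).

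Within the row of 6 genes the level in 1-d-old pupae differed greatly, and each gene fell to under 1% of it. In 1-d-old pupae gene2467 averaged 24564 ± 3668 TPM, gene2468 4801 ± 749 TPM, gene2462 749 ± 124 TPM, and gene2465, the lowest, 145 ± 31.5 TPM. Together the 6 genes made up 32522 ± 4230 TPM, or 3.25% of the library, of which the 3 with the accessory gland description made up 2408 ± 280 TPM. In 5-d-old pupae the sum was 42.7 ± 12.2 TPM and in 7-d-old larvae 7.12 ± 10.4 TPM. What remained at 5 d was 0.93% of the 1-d level for gene2463 and 0.24% for gene2466, beside 0.12% for gene2467, 0.10% for gene2462 and 0.095% for gene2468. Only reads with a unique match were kept in the alignment and RSEM estimated the levels; the likeness in sequence of the 6 genes was not measured, so whether reads were divided among them was not tested. Among 5-d-old females, replicate 3 alone had values above 0 for genes of the row. Their sum there was 22.2 TPM, with gene2467 at 10.79 TPM, and the source of this was not tested.

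**Figure D3:**
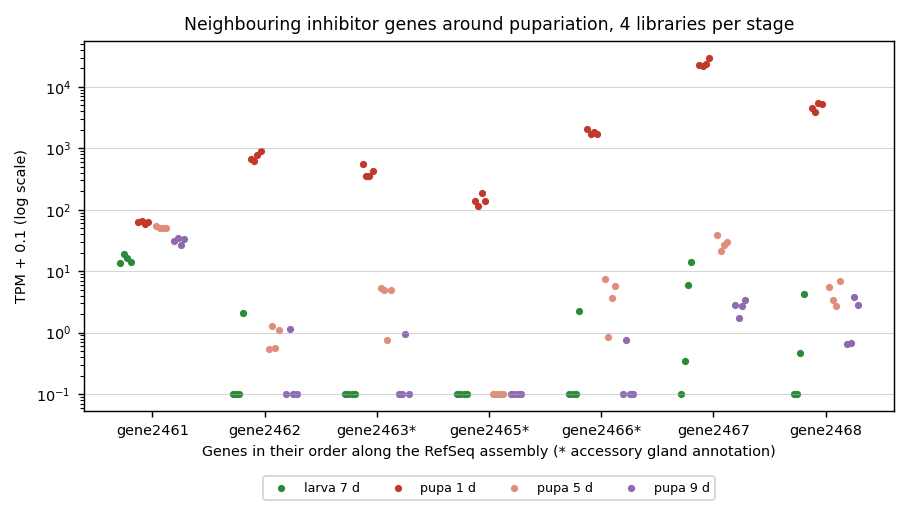
Level of the 6 neighbouring inhibitor genes and of gene2461 beside them, as TPM + 0.1 on a log scale, with 1 point per library and 4 libraries for each of the 7-d-old larva and the pupa of 1, 5 and 9 d; asterisks mark the 3 genes with the accessory gland description. In every 1-d-old pupa library each of the 6 stands above 100 TPM, and in the other 3 stages each is under 40 TPM.

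The remaining inhibitor-like gene, gene4564 (LOC105210779), was present in all 52 libraries. It was measured at 362.45, 372.96, 399.06 and 333.15 TPM in 1-d-old pupae, above every library of any other stage in TPM. In order of their means came larvae of 1 d (259 ± 59.3 TPM), eggs (238 ± 12.5 TPM), larvae of 7 d (215 ± 75.1 TPM) and larvae of 3 d (147 ± 44.9 TPM), each of which overlapped the next. This order depended on the scaling: with median-of-ratios scaling the 7-d-old larvae led (389 ± 126), before larvae of 1 d (343 ± 93.6) and 3 d (264 ± 82.3), and 1-d-old pupae followed at 248 ± 18.2. The log2 difference of 1-d-old pupae from 7-d-old larvae was 0.84 ± 0.41 (limma, adjusted p = 0.073) and became -0.59 after that scaling (adjusted p = 0.256).

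The step down in gene4564 came during the pupal stage. In 5-d-old pupae it was measured at 10.93, 2.01, 2.88 and 2.07 TPM, below all libraries of every other stage in TPM, and the log2 fold change from 1-d-old pupae was -6.34 ± 0.41 (limma, adjusted p = 2.15e-17). It then rose to 41.0 ± 22.1 TPM in 9-d-old pupae (log2 fold change 3.05 ± 0.41; limma, adjusted p = 3.17e-08) and had means between 26.7 and 66.3 TPM in the 6 adult groups. Leaving out the libraries with under 70% of reads mapped, which leaves 1 library of 9-d-old pupae, gave 3.75 for that rise. Eggs exceeded 9-d-old females by 2.91 ± 0.41 on the log2 scale (limma, adjusted p = 3.58e-08).

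On the assembly gene4564 is the immediate neighbour of gene4565, yet the 2 did not follow each other: Pearson's r over the 13 stage means of log2(TPM + 1) was -0.02, given as a description. Both lie inside the span of gene4566, annotated as the homeobox protein aristaless, a transcription factor. That gene went the other way from gene4565 between the sexes, at 5 d: females had 19.98 ± 2.43 TPM and males 2.49 ± 0.67 TPM (log2 fold change -2.60 ± 0.14; limma, adjusted p = 7.62e-20). The use of strand in counting is not stated, so reads from overlapping genes cannot be told apart. No library of older males had more than 5.53 TPM of gene4566, a level that comes from the same counting. Whether reads were shared between the overlapping genes was not tested.

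**Figure D4:**
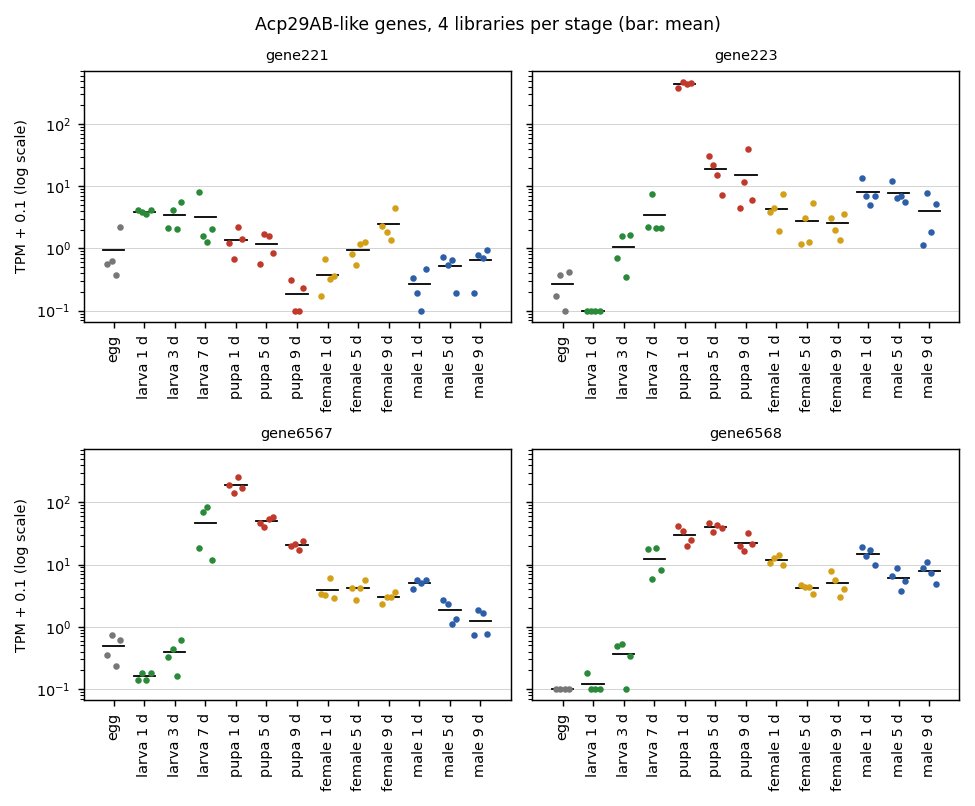
Level of each of the 4 Acp29AB-like genes in each library, as TPM + 0.1 on a log scale, with points for the 4 libraries of a stage and a bar at their mean. For gene223 and gene6567 the 1-d-old pupae stand above all other stages, gene6568 is highest across the pupal stages, and gene221 stays under 8 TPM throughout.

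None of the 4 Acp29AB-like genes was highest in adult males, and their summed level was 659 ± 45.8 TPM in 1-d-old pupae, against 13.4 ± 5.04 TPM in males and 12.7 ± 3.25 TPM in females of 9 d. The most abundant was gene223 (LOC105221321), at 380.76, 472.28, 443.24 and 454.85 TPM in 1-d-old pupae. In 7-d-old larvae it was measured at 2.08, 7.31, 2.03 and 2.07 TPM, and in 5-d-old pupae at 30.88, 22.17, 15.34 and 7.11 TPM. The 1-d-old pupae stood clear of both neighbouring stages, with a log2 fold change of 6.80 ± 0.46 from the larva (limma, adjusted p = 4.33e-17) and of -4.63 ± 0.46 to the 5-d-old pupa (limma, adjusted p = 1.09e-11). From 5-d-old pupae down to 9-d-old females, each stage in the order of its levels overlapped the next, and it was listed at 0 in all 4 libraries of 1-d-old larvae.

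A slower course was seen for gene6567 (LOC105212867), which rose before pupariation. In 3-d-old larvae it was at 0.06 to 0.52 TPM. In 7-d-old larvae it was measured at 18.39, 70.18, 84.91 and 11.72 TPM, a wide spread but above all 3-d-old larvae (log2 fold change 4.78 ± 0.33; limma, adjusted p = 1.82e-15). Replicates 1 and 2 of these larvae had the longer trimmed reads and replicates 3 and 4 the shorter, and each class held a low and a high value. Whether trimmed length had a part in this spread was not tested. In 1-d-old pupae the gene reached 191.4, 139.38, 258.55 and 171.24 TPM (2.41 ± 0.33 from the larva; limma, adjusted p = 1.10e-08). That step fell below the fold threshold with median-of-ratios scaling (1.01) and without replicate 4 of the larvae (1.92). The gene then stood at 49.3 ± 7.93 TPM at 5 d (-1.90 ± 0.33, or -2.04 and past the threshold without replicate 2 of the 1-d-old pupae), at 20.3 ± 2.71 TPM at 9 d, and was lower again in 1-d-old females, at 3.77 ± 1.43 TPM (-2.19 ± 0.33; limma, adjusted p = 2.33e-07). In 1-d-old males it stood at 5.04 ± 0.75 TPM, a log2 difference of -1.82 from 9-d-old pupae that did not pass the fold threshold.

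The level of gene6568 (LOC105212866) passed the threshold in no comparison between pupal stages, with means of 30.2 ± 9.90, 40.5 ± 6.22 and 22.4 ± 6.81 TPM at 1, 5 and 9 d, each overlapping the next in order. It rose with gene6567 from 3-d-old to 7-d-old larvae, from 0.27 to 12.3 ± 6.33 TPM (log2 fold change 3.27 ± 0.27; limma, adjusted p = 2.61e-13). In adults it stood at 14.8 ± 4.03 TPM (males) and 11.7 ± 2.07 TPM (females) at 1 d, and at 4.10 to 7.81 TPM in the older groups. All 4 egg libraries were listed at 0, below 9-d-old females at 4.99 ± 2.09 TPM (limma, adjusted p = 2.55e-11); no fold is given, and that call did not hold with median-of-ratios scaling.

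The lowest of the family was gene221 (LOC105221308), which never passed 8 TPM and was not called in any comparison. Its 4 libraries of 1-d-old larvae were close together, at 4.01, 3.7, 3.53 and 4.02 TPM, while in eggs it was at 0.28 to 2.14 TPM, a log2 difference of 1.47 ± 0.30 (limma, adjusted p = 4.99e-05) below the fold threshold. Among adults it was highest in 9-d-old females, at 2.18, 1.72, 1.27 and 4.32 TPM. Both gene221 and gene223 lie inside the span of gene227 (CUGBP Elav-like family member 4, an RNA-binding protein), whose stage means were at most 1.58 TPM, and gene6567 inside that of gene6566 (carboxypeptidase N subunit 2), at most 5.42 TPM. Between gene221 and gene223 lies gene222, described as tetranectin-like, another C-type lectin, which rose to 25.9 ± 2.44 TPM in 1-d-old pupae from 1.87 ± 1.09 TPM in 7-d-old larvae.

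Counted by comparison, the 9 genes changed mainly at the start and the middle of the pupal stage. Leaving gene2465 aside, 4 of the other 8 rose from 7-d-old larvae to 1-d-old pupae (gene223, gene2463, gene2466 and gene6567), where 12.2% of all genes rose, and 0 fell, where 4.95% of all genes did. With median-of-ratios scaling these shares turned, to 3.63% higher and 8.40% lower, and 3 of the 8 rose, without gene6567. The median log2 difference of the 8 was 1.86, against 0.67 over all genes (0.03 with that scaling). From 1-d-old to 5-d-old pupae 4 of the 8 fell (gene223, gene2463, gene2466 and gene4564), where 4.98% of all genes fell, and 0 rose, where 7.17% of all genes did. With scaling the same 4 fell, where 2.74% of all genes fell and 8.42% rose. The median log2 difference was -3.27 for the 8 genes and -0.09 for all genes. Both comparisons share the libraries of 1-d-old pupae. In both counts gene2463 and gene2466 are near neighbours of nearly the same course (Pearson's r = 0.997 over stage means), so the genes counted are not independent. Without the 6 libraries of low mapping rate the log2 fold change of gene4565 in 9-d-old males against females was 7.69. The 9-d-old pupae then had 1 library, assumed to vary like the other stages, which gave -2.27 for gene6567 in 1-d-old females against them and -1.94, no longer past the threshold, for gene2466 from 5-d-old pupae.

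The other steps touched fewer genes. In all of them gene2465 was listed at 0 in every library compared, so it could not be called. Of the 9, 2 rose from 3-d-old to 7-d-old larvae (gene6567 and gene6568), where 1.36% of all genes rose. From 5-d-old to 9-d-old pupae gene4564 rose and gene2466 fell, where 4.22% rose and 2.84% fell, and from 9-d-old pupae to 1-d-old females gene6567 fell, where 6.14% fell. Between eggs and 9-d-old females gene4564 was higher and gene6568 lower in eggs, where 6.93% and 10.0% of all genes were (8.10% and 5.13% with median-of-ratios scaling, under which only gene4564 was called). By limma, 0 of the 9 were called from eggs to 1-d-old larvae (2 at an unadjusted p under 0.05; 7.09% of all genes called), from 1-d-old to 3-d-old larvae (1; 3.23%), and from 9-d-old pupae to 1-d-old males (2; 5.08%). The same count of 0 was found from 5-d-old to 9-d-old males (2 at an unadjusted p under 0.05; 0.322% of all genes called), from 1-d-old to 5-d-old females (1; 7.81%), from 5-d-old to 9-d-old females (1; 0.766%) and for the contrast of the sexes in how they changed from 5 to 9 d (1; 0.597%).

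**Figure D5:**
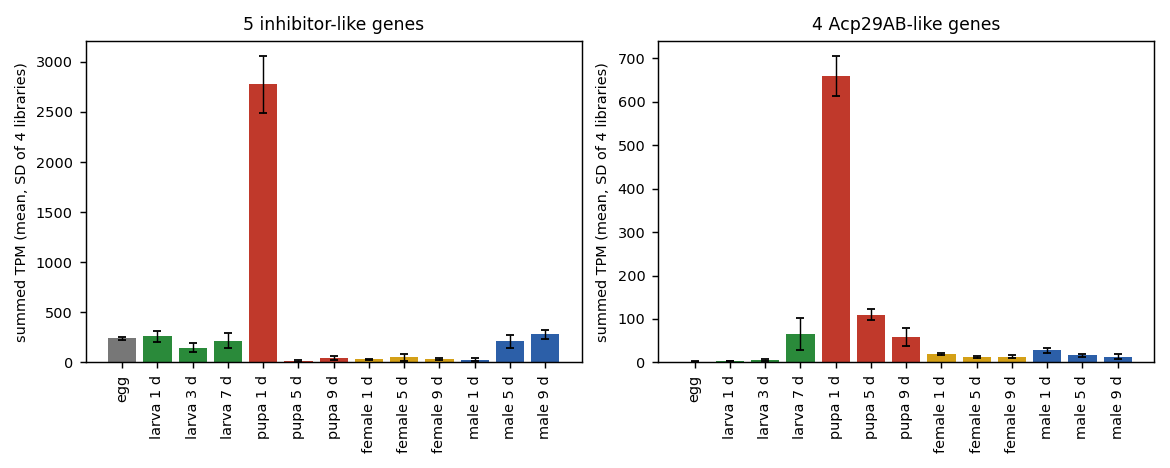
Summed TPM of the 5 inhibitor-like genes (left) and the 4 Acp29AB-like genes (right) at each stage, with bars for the mean of 4 libraries and error bars for the SD. From 1-d-old pupae to 9-d-old males, the inhibitor-like sum is 2775 and 279 TPM, and the Acp29AB-like sum is 659 and 13.4 TPM.

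Summed by family, the inhibitor-like genes reached 2775 ± 283 TPM in 1-d-old pupae, 13.1 ± 8.31 TPM in 5-d-old pupae, and 210 ± 67.0 and 279 ± 44.3 TPM in males of 5 and 9 d. In eggs, where gene4564 made up nearly all of it, the sum was 240 ± 11.8 TPM. The sum of a family therefore hid a change of members: gene2466 led in 1-d-old pupae, gene4564 in eggs and larvae, and gene4565 in older males. Over the 13 stage means of log2(TPM + 1), Pearson's r was 0.997 between gene2463 and gene2466, 0.981 between gene2465 and gene2466, 0.846 between gene223 and gene6567 and 0.835 between gene6567 and gene6568. Between gene221 and the other Acp29AB-like genes it ran from -0.51 to -0.15. These coefficients are descriptions of 13 points that share library totals, and those of gene2465 rest on 1 stage.

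The genes most like each member were taken by Pearson's r over the same 13 stage means, from genes that pass 10 TPM in some stage. Nearest to gene4565 were MSTRG.19066, gene13635 and gene13611, newly assembled or uncharacterized genes that reached 523, 218 and 282 TPM in 9-d-old males, and gene8284 (high choriolytic enzyme 1-like, named for a metalloprotease of fish hatching), each with r of 0.99. Nearest to gene2463 and gene2466 was the uncharacterized gene418 (r = 0.999 with both; 1123 TPM in 1-d-old pupae), and 16 genes had r over 0.99 with gene2463. With Spearman's rho in place of Pearson's r, 0 of the nearest 5 were found again for each of gene4565, gene2463 and gene223, so their lists depend on the measure. The list of gene223 held a coactosin-like protein (gene5612), an actin-binding protein, and integrin alpha-PS3-like (gene3667), a cell adhesion receptor (both r = 0.96). Nearest to gene4564 was gene10131 (r = 0.93), and its list held L-lactate dehydrogenase (gene746; r = 0.90). The nearest named gene to gene6567 was fibrinogen-like protein A (gene8588; r = 0.95). For gene221 the highest r was 0.85.

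Other products of the male reproductive tract and of inhibitor families show where gene4565 stood among adult genes. Of 36 protease inhibitor genes tested outside the 5 described here, 5 rose from 1-d-old to 5-d-old males and 0 fell (1.87% and 0.708% of all genes), and at 9 d 4 were higher and 1 lower in males than in females (6.81% and 10.1% of all genes, or 10.6% and 4.94% with median-of-ratios scaling). Their median log2 difference was 0.31 with age and 0.75 between the sexes, against 0.12 over all genes in both comparisons (0.35 between the sexes with that scaling). The kunitz-type inhibitor gene4562 (kalicludine-3-like) had nearly the course of gene4565: its stage means were 0.16 TPM in 1-d-old males, 145 ± 31.2 TPM at 5 d and 173 ± 31.3 TPM at 9 d, and at most 0.11 TPM in females (5-d-old against 1-d-old males, log2 fold change 6.98 ± 0.32; limma, adjusted p = 4.66e-22). Alaserpin-like gene3587, of the serpin class of inhibitors, rose from 18.5 to 127 TPM in males from 1 to 5 d. It also stood at 194 TPM in 1-d-old pupae and at 38.8 TPM in 5-d-old females. The 1 gene lower in 9-d-old males was chymotrypsin inhibitor-like gene13720, at 19.0 TPM against 840 TPM in females (log2 fold change -5.57 ± 0.42, adjusted p = 1.15e-15 by limma).

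Among 19 cysteine-rich secretory (venom allergen) genes, a family present in many secretions, 9 were higher and 2 lower in 9-d-old males than in females. Over all genes these shares were 6.81% and 10.1%, or 10.6% and 4.94% with median-of-ratios scaling. From 1-d-old to 5-d-old males 5 rose (1.87% of all genes). Their median log2 differences were 1.41 and 0.27, against 0.12 over all genes in both comparisons (0.35 between the sexes with that scaling). Of these, gene12221 stood at 361 ± 25.0 TPM in 9-d-old males and was already at 248 ± 17.8 TPM in 1-d-old males, whereas gene3880 was at 28.9 TPM at 1 d and 528 TPM at 5 d in males but also at 212 TPM in 5-d-old females. Of 24 genes of the angiotensin-converting enzyme and neprilysin peptidase families 2 were higher in 9-d-old males, a share near that of all genes, among them angiotensin-converting enzyme (gene5254; 192 against 38.7 TPM).

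Many sperm genes were higher in males already at 1 d, when gene4565 was not. Of 40 sperm and testis genes 25 were higher in 9-d-old males than in females (6.81% of all genes, or 10.6% with median-of-ratios scaling). At 1 d 23 were already higher (4.52% of all genes at that age). From 1-d-old to 5-d-old males 0 changed, near the shares of all genes (1.87% rose and 0.708% fell). The median log2 differences were 3.34 at 9 d, 2.89 at 1 d and 0.19 with age, against 0.12, 0.02 and 0.12 over all genes. Of 16 genes found by the word lectin, 2 were higher and 2 lower in 9-d-old males than in females. These counts are not far from the shares of all genes (6.81% and 10.1%, or 10.6% and 4.94% with median-of-ratios scaling). The search also took plectin, a cytoskeletal linker, which was 1 of those lower. Of 36 odorant-binding protein genes 3 were higher in 9-d-old males, near the share of all genes, and 0 lower. Of 28 yolk and eggshell genes 2 were higher and 13 lower. Over all genes 6.81% were higher and 10.1% lower, or 10.6% and 4.94% with median-of-ratios scaling, under which the lists were not counted. The search for seminal fluid and male duct products found 4 genes, of which gene4593 and gene564 are male-specific lethal proteins of dosage compensation, taken by the word male-specific. Of the other 2, both described as ejaculatory bulb-specific protein 3, 0 were called at 9 d, which says little beside the 6.81% and 10.1% of all genes. From 1-d-old to 5-d-old males gene13480 fell from 112 to 12.3 TPM (0.708% of all genes fell). It stood at a like 104 TPM in 1-d-old females.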

How the data were processed

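The deposited table holds TPM per gene and library, computed by the authors with RSEM 1.3.1 after trimming (SeqPrep, Sickle), alignment (HISAT2 2.1.0; unique matches) and assembly of new transcripts (StringTie); its gene length column (another deposited value, in nt) was copied only. The genome build and the use of strand are not given in the sources used here. Columns add up to between 999999 and 1000001 TPM, no 2 are identical, and read counts were not used, so depth is unknown and the study's count test was replaced by limma 3.58.1 in R 4.3.3 (trend, robust; 1 mean per stage over 52 libraries; a gene entered with over 0.1 TPM in 4 or more libraries; pseudocount 1). Tables and figures were made in Python 3.11.15 with pandas 2.3.3 and matplotlib 3.10.9. In data simulated with normal noise, changed genes were drawn from those with a mean log2(TPM + 1) above 3 in the earlier stage. For 1-d-old pupae against 7-d-old larvae, 99 of 100 genes changed by 3 on the log2 scale and 2 of 100 changed by 1.5 were called. Of 16897 unchanged genes 1 was called. These genes were given the same mean in both stages, so hardly any call could follow. The median shift of 0.67 over all genes in the real comparison of these stages was not simulated. For 5-d-old against 1-d-old males 97 and 3 of 100 were called. A change of 1.5 lies under the fold threshold of 2, so few calls were bound to follow. Genes that start near 0 TPM, such as gene4565, gene2463 and gene2466, were not covered.

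The 9 genes, the lists (searches of the product description) and the tests were chosen with earlier results of these data known. Named genes were all 9 members, the 5 genes most like each, up to 3 called genes of highest mean TPM per list in 2 comparisons, and the markers of sex; the text gives part of them. Neighbours, gene222 and gene4566 among them, and the genes beside gene2466 were named after their values were seen. Gene order came from RefSeq (idZeuCucr1.2), in which 8 of the 9 were found; gene6568 was not. Mapping rates and trimmed read lengths are those of the study's list of libraries. Replicates are separate pools, and no source ties replicate numbers across stages.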

Additional observations from a re-analysis of the deposited data

Results flagged for a closer look

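Within a stage, 6 library values stood apart from the other 3 by a gap that exceeded Dixon's 95% critical share of the stage's range. Of 57 groups with a mean of at least 1 TPM these are 6, where chance marks about 1 in 20. For gene221 replicate 1 of the 7-d-old larvae had 7.92 TPM, against 1.19 to 1.99 TPM in the others. For gene223 replicate 2 of the same stage had 7.31 TPM, against 2.03 to 2.08 TPM. For gene4564 replicate 1 of the 5-d-old pupae had 10.93 TPM, against 2.01 to 2.88 TPM, and for gene2463 replicate 3 of that stage had 0.66 TPM, against 4.87 to 5.3 TPM. For gene4565 replicate 3 of the 9-d-old males had 297.3 TPM, against 170.24 to 191.56 TPM. For gene6567 replicate 3 of the 1-d-old females had 5.89 TPM, against 2.81 to 3.24 TPM. The 6 values came from 6 different libraries, and their part in the results was tested only by leaving each out.

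The change from 1 to 5 d differed between the sexes for gene4565, by 7.35 on the log2 scale (limma, adjusted p = 2.36e-19), with 4 of 4 libraries of 5-d-old males above all others of both sexes at those ages.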

How the results depend on the processing

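The count of the 9 genes called, gene2465 included, depended on the pseudocount where levels were low. With a pseudocount of 0.1 TPM it was 2 in place of 1 between 9-d-old males and females, 4 in place of 2 from 5-d-old to 9-d-old pupae, 1 in place of 0 from 1-d-old to 3-d-old larvae, 2 in place of 0 from eggs to 1-d-old larvae, and 5 in place of 2 between eggs and 9-d-old females. That last count was 1 under median-of-ratios scaling. From 5-d-old to 9-d-old pupae it ran from 1 to 3 over the leave-one-out fits, and was 1 without the 6 libraries of low mapping rate, a setting chosen after seeing the data, as was the fit within one class of trimmed read length, which left 5 called from 7-d-old larvae to 1-d-old pupae. Of the 45 most alike genes 25 were found again over 52 libraries and 13 with Spearman's rho. Of the log2 differences followed through the alternatives 1 changed its sign, that of gene4564 between 1-d-old pupae and 7-d-old larvae (0.84, and -0.59 with median-of-ratios scaling), a difference that was not called; its levels after scaling were added after seeing the data. The other 250 counts stood within 1.5 times.

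A block for the replicate number changed no count (1 gene between 9-d-old males and females, 5 from 7-d-old larvae to 1-d-old pupae, 5 from there to 5-d-old pupae). The numbers do not pair samples: same-numbered libraries of different stages had a median correlation of deviations of -0.00, at most 0.22, and 15 of 52 were nearest to their own number.

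Values under about 1 TPM lie near the 2 printed decimals and the pseudocount, and depth is unknown, so listed zeros do not show absence.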
